A study of Coprinopsis cinerea with 10 samples.

Results

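Fruiting initials of the ink cap mushroom Coprinopsis cinerea, about 2 mm tall, were compared with the mean of 4 other life stages, each weighted equally. The initials were taken by their sample titles and made up 2 of 10 one-colour NimbleGen arrays. Each initials array held RNA of 4 to 5 structures and was a separate biological replicate, per the labels. The stages they were set against, also with 2 arrays each, were vegetative mycelium pooled over 5 agar plates, stage 2 primordia of about 1 cm, young fruiting bodies of about 2 cm, and the expanded cap alone of mature fruiting bodies of about 4 cm. All samples came from 1 dikaryotic strain that had been crossed back to the sequenced monokaryon Okayama-7 over 5 generations. Mycelium was grown at 37 °C, whereas fruiting was induced at 25 °C with 12 h of light per day, so growth temperature and the step out of vegetative growth cannot be told apart. Tissue and stage cannot be told apart for the mature sample, which was cap alone.

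A fruiting initial is the first compact body of a mushroom: hyphae of the dikaryon stop spreading, branch densely and knit into a knot in which cap and stipe tissue are laid down. Cooling and light set this off in C. cinerea. The gills that form later carry out nuclear fusion, meiosis and spore formation, after which the ripe cap digests itself. Secreted hydrophobins, which coat hyphae, and galectins, lectins that bind beta-galactosides on surfaces, are known for changing between vegetative and fruiting tissue in this fungus.

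The arrays measured 13320 genes, of which 8992 (67.5%) had no named product and were labelled predicted or hypothetical. Values are RMA intensities on a linear scale, with an array median between 3268 and 3403. The floor of an array was set at 4 times its random-sequence control value, which gave 89.4 to 117 intensity units, and a gene was called under the floor in a stage when neither array exceeded it. On the initials arrays 1948 and 1998 genes were at or under it. The initials replicates correlated across genes at r = 0.999, against 0.997 to 0.999 in the other stages. The 10 arrays shared 1 slide and were placed on it by stage, which means that position on the slide and stage cannot be told apart. In bulk RNA, fewer cells of a type and less RNA per cell cannot be told apart either.

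The labelled tissue was checked on its fruiting body galectins. Galectin-1 (CC1G_05003) had intensities of 15102 and 14686 in initials, against 3122 and 3252 in mycelium, 12462 and 13227 in primordia, 10431 and 10337 in young fruiting bodies and 704 and 622 in mature caps. The initials arrays were the brightest of the 10, and the mycelium and mature cap arrays were the dimmest. Galectin-1 was 1.86 log2 units above the mean of the other stages (SE 0.049, limma adjusted p = 5.61e-07). It was only 1.16-fold above primordia, a difference that passed by itself (limma adjusted p = 0.0288). In the test against all 4 other stages at once it did not pass (adjusted p = 0.155). Galectin-2 (CC1G_05005) had 23901 and 24534 in initials, against 16241 and 16157 in mycelium, 21872 and 22709 in primordia and 5460.0 and 6103 in mature caps. Its difference from the mean was 0.81 ± 0.042 (adjusted p = 5.75e-06). Initials were 1.49-fold above mycelium (limma adjusted p = 5.99e-05) and 1.09-fold above primordia (0.109), so galectin-2 was not low in mycelium. The third lectin, CGL3 (CC1G_00723), had 14183 and 14334 in initials, against 13176 and 13104 in mycelium, 13066 and 13522 in primordia and 1847 and 1138 in mature caps. CGL3 in initials did not pass against mycelium (limma adjusted p = 0.618) or primordia (0.710). It differed by 1.02 ± 0.15 from the mean (adjusted p = 0.000957), and this call was lost without the mature stage (adjusted p = 0.195) and with averaged pairs (0.0608).

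Against the mean of the other 4 stages, initials were higher for 4783 genes (35.9% of all genes tested) and lower for 4035 (30.3%), at a Benjamini-Hochberg adjusted p under 0.05 from limma. Most of these differences were small: 561 genes (4.21%) were at least 2-fold higher and 585 (4.39%) at least 2-fold lower. Of the 561 genes, 317 had their lowest level in mature caps and 198 in mycelium. Initials held the highest level of only 329 of them, while mycelium held it for 126. Of the 585 genes, 353 were lowest in initials, and 288 had their highest level in mature caps.

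Stage by stage, initials lay closest to primordia, with 3262 genes higher (24.5%) and 3135 lower (23.5%) and a median absolute log2 difference of 0.157. Against mycelium 4993 genes were higher (37.5%) and 4483 lower (33.7%), with a median of 0.333. Against young fruiting bodies 4365 were higher (32.8%) and 4260 lower (32%), with a median of 0.260. The mature cap was farthest, with 5385 genes higher in initials (40.4%), 5074 lower (38.1%) and a median of 0.501. These 4 comparisons share the initials arrays and are given side by side only.

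Since a mean of 4 stages can be moved by 1 of them, genes were also asked to stand above, or below, each other stage at once. This held for 296 genes above (peak genes, 2.22%) and 437 below (trough genes, 3.28%). The margin, the difference from the nearest other stage, was mostly slight, with a median of 1.28-fold for peak genes and 1.34-fold for trough genes. Only 25 peak genes (0.188%) and 54 trough genes (0.405%) had a margin of at least 2-fold. Primordia were the nearest stage for 216 of the 296 peak genes and for 242 of the 437 trough genes. Products were missing for 201 peak genes (67.9%) and 272 trough genes (62.2%), against 67.5% of all genes.

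These 2 counts rested on both initials arrays. Without initials replicate 1 there were 55 peak and 253 trough genes, and without initials replicate 2 there were 54 and 246. The peak count also moved to 165 and 164 without mycelium replicate 1 or 2, to 140 without primordium replicate 1, and to 158 and 159 without young fruiting body replicate 1 or 2. Over all genes, the replicates of initials differed 1.075 times as much as the noise between the 2 probe blocks of an array gives, those of mycelium 1.055 times and those of young fruiting bodies 1.157 times. For primordia and mature caps this ratio was 1.38 and 1.265. The labels call all replicates biological. Counting the 3 pairs with the lowest ratio as 1 sample each left no peak and no trough gene in limma, with 490 and 584 at an unadjusted p under 0.05. The counts against the mean then were 2782 higher and 2397 lower. With that setting all 35 peak and trough calls taken by the naming rule were lost, which is not repeated at each gene.

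**Figure D1:**
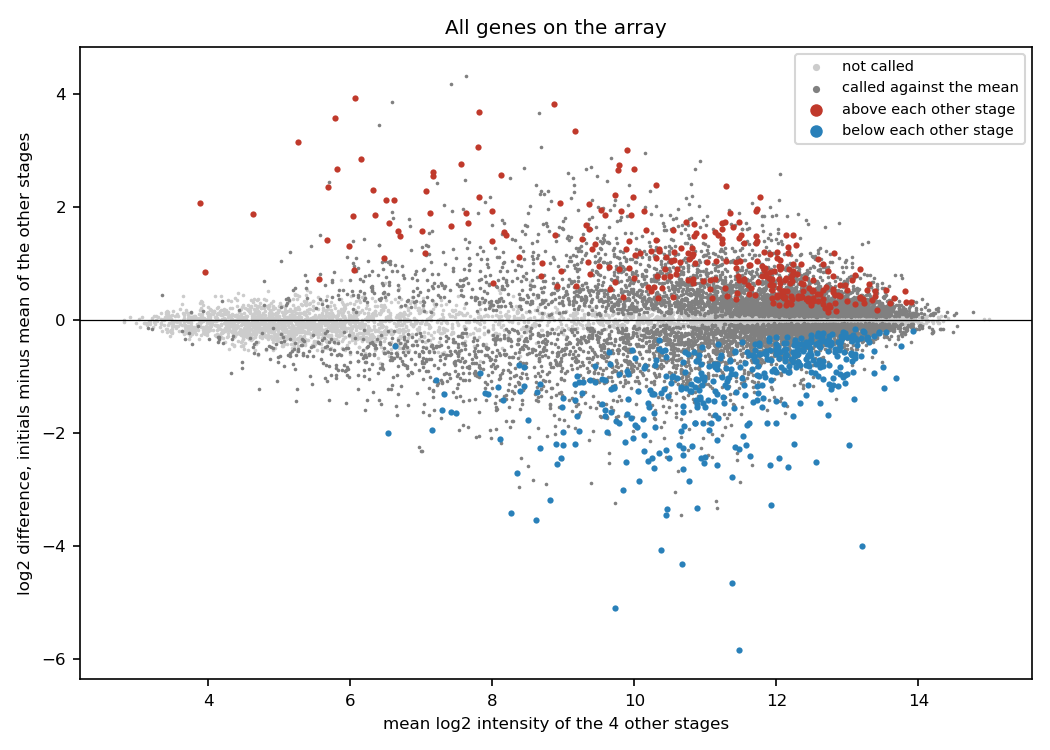
Log2 difference of initials from the mean of the 4 other stages (vertical axis) against that mean (horizontal axis, log2 intensity), 1 point per gene for all 13320 genes. The 296 peak genes (red) and 437 trough genes (blue) lie on either side of 0, and the 5 lowest points are trough genes.

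The peak gene with the largest fitted margin, CC1G_12452, has no named product. It had intensities of 333 and 346 in initials, against 40.1 and 40.3 in mycelium, 74.9 and 84.1 in primordia, 21.3 and 25.6 in young fruiting bodies and 33.0 and 25.2 in mature caps. Both initials arrays stood far above all 8 others, and every other stage was under the floor, so the fold over the nearest of them, primordia, is at least 3.16 (margin adjusted p = 0.00201). This bound is below the measured margin of CC1G_13749, 3.45-fold, so its rank is not settled. With any 1 array left out the adjusted p lay between 0.00139 and 0.0333, but neither block of probes passed alone (adjusted p = 0.0987 and 0.0761). Its neighbours on the annotation, CC1G_12453 and CC1G_12454, also without named products, were peak genes too, with margins of 0.53 and 0.21 log2 units. This was the only run of 3 neighbouring peak genes.

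CC1G_13749, also unnamed, had 546 and 484 in initials, against 36.2 and 30.5 in mycelium, 135 and 132 in primordia, 138 and 161 in young fruiting bodies and 41.4 and 36.1 in mature caps. Initials were again above all other arrays, 3.45-fold over young fruiting bodies (adjusted p = 0.00201), and the call held with any 1 array left out (up to 0.0333). Another unnamed pair, CC1G_08913 and CC1G_08916, lies close together by locus tag. CC1G_08913 had 810.4 and 861 in initials, against 237 and 224 in mycelium, 259 and 313 in primordia, 143 and 150.5 in young fruiting bodies and 48.7 and 38.9 in mature caps. CC1G_08916 had 429 and 434 in initials, against 127 and 127 in mycelium, 143 and 162 in primordia, 75.3 and 69.1 in young fruiting bodies and 63.6 and 71.3 in mature caps. In both, initials were brightest, primordia and mycelium were next, and mature caps were under the floor. Their margins over primordia were 2.93-fold (adjusted p = 0.00327) and 2.83-fold (adjusted p = 0.00169), and both held without any 1 array. With block 1 alone CC1G_08913 missed the threshold (adjusted p = 0.0524).

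Other unnamed peak genes were under the floor in mycelium, above it but below the array median in initials, and dimmer in primordia. CC1G_03985 had 1041 and 988 in initials, against 21.2 and 30.5 in mycelium, 265 and 397 in primordia, 119 and 137 in young fruiting bodies and 19.97 and 17.5 in mature caps. CC1G_08983 followed the same order, with 668 and 649 in initials, against 21.1 and 35.0 in mycelium, 199 and 237 in primordia, 98.7 and 109 in young fruiting bodies and 14.1 and 15.7 in mature caps. Mature caps were under the floor for both too, and initials were 3.13 and 3.03 times the level of primordia (both adjusted p = 0.0137). Both calls were lost without initials replicate 1, initials replicate 2 or primordium replicate 1, with an adjusted p of up to 0.114 for CC1G_03985 and 0.113 for CC1G_08983, and CC1G_08983 also missed the threshold with block 1 alone (0.0988).

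CC1G_15271 was above the floor in initials alone, with 269.6 and 259 there, against 59.1 and 92.5 in primordia, at least 2.46-fold higher (adjusted p = 0.0101). It lost the call without initials replicate 1 or 2 (up to 0.0916). CC1G_02324 was brighter throughout, with 2119 and 2073 in initials, against 436 and 508 in mycelium and 479.6 and 829 in primordia. Its primordium and mature cap replicates differed (767 and 509 in caps), and 8 of the 10 arrays left out singly ended its call, which had an adjusted p of 0.0247. Its margin stayed at 1.73 log2 units without either array of mycelium or of young fruiting bodies.

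**Figure D2:**
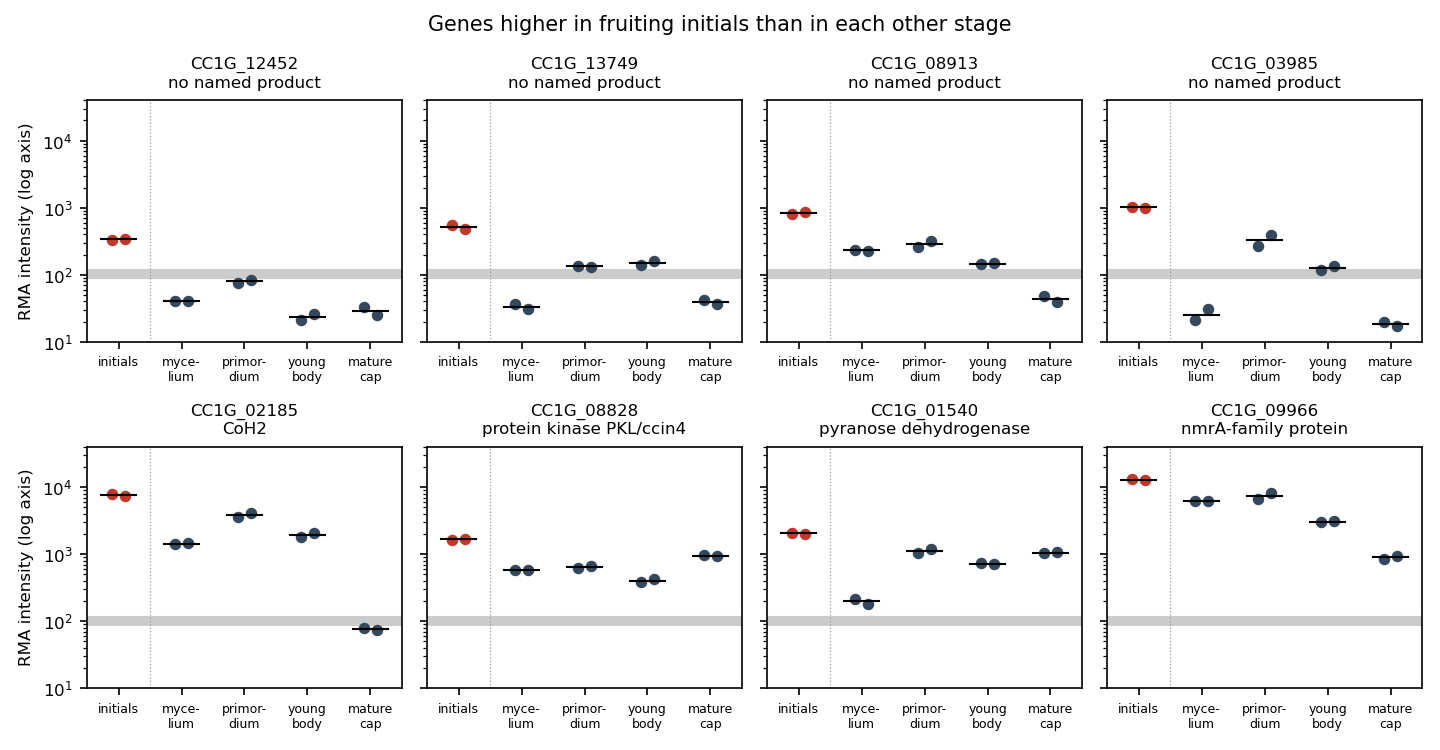
RMA intensity (log axis) of 8 peak genes on each of the 10 arrays, with initials in red at the left, then mycelium, primordia, young fruiting bodies and mature caps. Points are arrays (2 per stage), bars their geometric mean, and the grey band the range of floors from 89.4 to 117; the initials points lie above all others in every panel.

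The product CoH2 (CC1G_02185), grouped here with the hydrophobins, was among the brighter named peak genes. It had 7869.8 and 7486 in initials, against 1412 and 1472 in mycelium, 3553 and 4156 in primordia, 1785 and 2052 in young fruiting bodies and 79.6 and 73.9 in mature caps. Both initials arrays were above all others, primordia came next, and mature caps were under the floor. The level in initials was 2.00-fold that of primordia (adjusted p = 0.00377, at most 0.0472 with any 1 array left out) and at least 70.7-fold that of mature caps.

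The protein kinase PKL/ccin4 (CC1G_08828) had 1629.6 and 1696 in initials, against 576 and 591 in mycelium, 613 and 677 in primordia, 382 and 420.3 in young fruiting bodies and 981 and 925 in mature caps. No array of another stage reached the initials, and the margin of 1.75-fold over mature caps (adjusted p = 0.00327) held without any 1 array.

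Several other named peak genes were secreted or metabolic enzymes. Pyranose dehydrogenase (CC1G_01540), a flavoenzyme that oxidises sugars, had 2092 and 2006 in initials, against 216 and 184 in mycelium, 1036 and 1177 in primordia, 742 and 708 in young fruiting bodies and 1036 and 1076 in mature caps. Its level in initials was 1.85-fold that of primordia (adjusted p = 0.00459), with the call lost without initials replicate 1 (0.0564) or with block 1 alone (0.143). Acetyl xylan esterase (CC1G_03267), which removes acetyl groups from xylan, was 1.95-fold above primordia (adjusted p = 0.0129) and lost the call without initials replicate 1 or 2 or primordium replicate 2. Triacylglycerol lipase (CC1G_09522) had 7406 and 7343 in initials, against 4517 and 4745 in primordia, a narrow margin of 1.59-fold that held without any 1 array (adjusted p = 0.002). 

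The nmrA-family protein (CC1G_09966), named for a regulator of nitrogen use in Aspergillus, had 13112 and 12599 in initials, against 6225 and 6302 in mycelium, 6609 and 8265 in primordia, 2991 and 3126 in young fruiting bodies and 843 and 947 in mature caps. Initials were at the top and levels were lower in each later stage, with 1.74-fold over primordia (adjusted p = 0.0116). That call was lost without initials replicate 1 or 2 (up to 0.102). A cytochrome P450 (CC1G_14012) passed with 138 and 110.1 in initials and every other stage under the floor, at least 1.15-fold over primordia, but its adjusted p was 0.0478 and each of the 10 arrays left out ended it.

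The 3 genes whose log2 profile over the 10 arrays was most like that of CC1G_12452, by Pearson correlation, were CC1G_10168 (r = 0.995), CC1G_00025 (r = 0.989) and CC1G_14213 (r = 0.985). None has a named product, and all are bright, with 17591 and 17081, 7454 and 7754 and 7713 and 7819 in initials. Their differences from the mean were 0.53, 0.51 and 0.28 log2 units. CC1G_12452 was under the floor in the 4 other stages, so these correlations rest in part on values not above background.

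Some trough genes were several-fold brighter in every other stage than in initials. NADH:quinone oxidoreductase (CC1G_04039), a redox enzyme that passes electrons from NADH to quinones, had 572 and 597 in initials, against 4978 and 5035 in mycelium, 9769 and 8625 in primordia, 16935 and 16891 in young fruiting bodies and 9999.6 and 10450.0 in mature caps. Both initials arrays were far below the other 8, 8.57-fold below mycelium, the nearest stage (adjusted p = 5.28e-06), and this held without any 1 array (at most 0.000203). An alcohol dehydrogenase (CC1G_14930) had 109 and 101 in initials, against 3890.5 and 4148 in mycelium, 511 and 396 in primordia, 2033 and 1904 in young fruiting bodies and 13982 and 13883 in mature caps. Its nearest stage was primordia, 4.29-fold above initials (adjusted p = 0.000251), while mycelium and mature caps were brighter by far. The initials values lay just above their floors of 95.0 and 98.4, so this fold is uncertain.

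CC1G_06912, without a named product, had the most negative difference from the mean among all genes, -5.86 ± 0.049, which with the floor in place of the initials values is a fall of at least 29.3-fold. Its intensities were 46.9 and 51.1 in initials, against 324 and 334 in mycelium, 3162 and 2845 in primordia, 7198 and 6967 in young fruiting bodies and 9370.1 and 9103 in mature caps. Initials were under the floor, mycelium was next, and each later stage was brighter, so the fold below mycelium is at least 3.40 (adjusted p = 6.03e-06). CC1G_10973, also unnamed, had 28.2 and 21.4 in initials, against 329.9 and 359 in mycelium, 263 and 167 in primordia and 9158 and 8239.9 in mature caps. It was under the floor in initials too, at least 2.17-fold below primordia (adjusted p = 0.000493). CC1G_11449 had 406 and 395 in initials, against 2086 and 2138 in mycelium and 12787 and 12682 in mature caps, a margin of 5.27-fold (adjusted p = 6.59e-05).

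These calls held without any 1 array. The unnamed CC1G_11093 did not: its 5.00-fold margin under mycelium (adjusted p = 0.0248) was lost without either array of initials, mycelium, primordia or young fruiting bodies, and with block 1 alone (0.0517). Its mature cap replicates differed, at 1224 and 420.4.

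**Figure D3:**
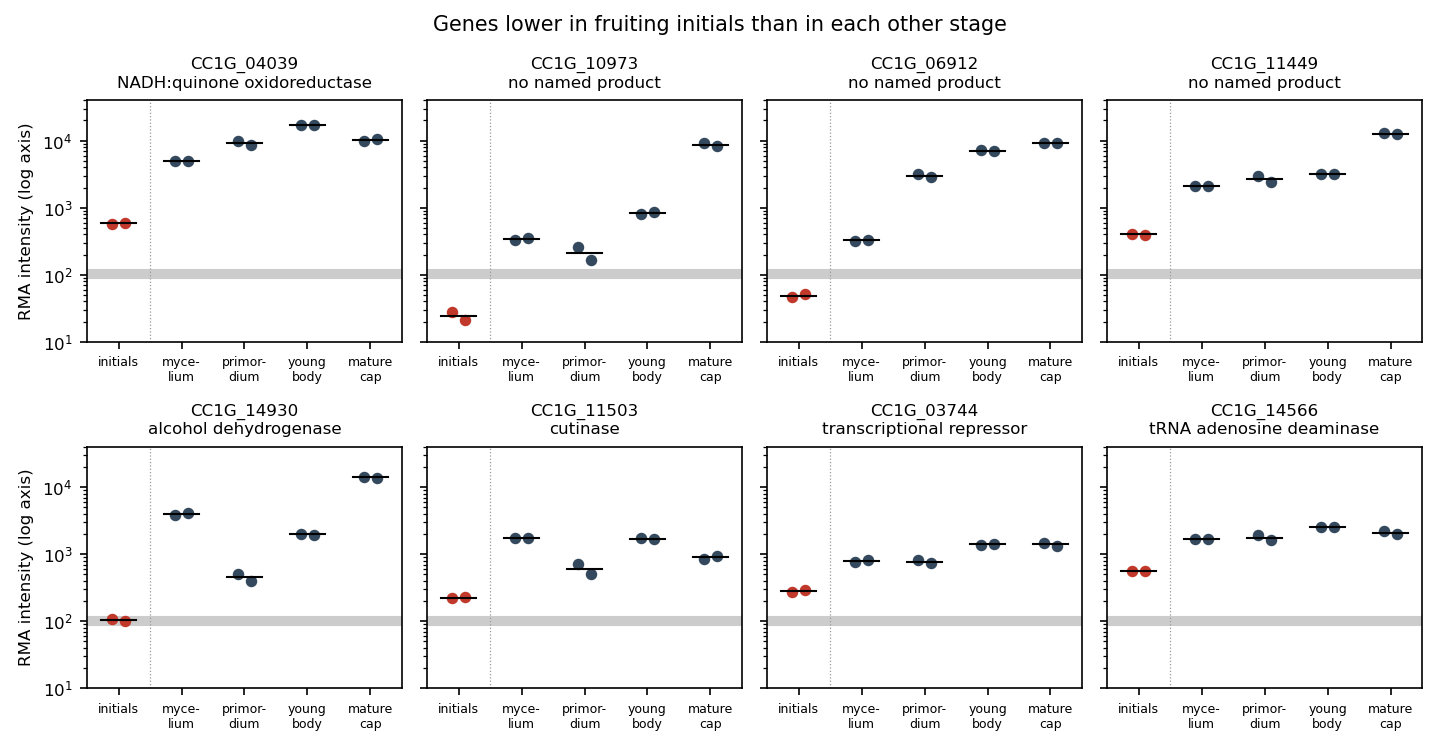
RMA intensity (log axis) of 8 trough genes on each of the 10 arrays, with initials in red at the left, then mycelium, primordia, young fruiting bodies and mature caps. Points are arrays (2 per stage), bars their geometric mean, and the grey band the range of floors. The initials points lie below all others in every panel, in 2 panels under the floor, and for CC1G_14930 within the grey band.

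Other named trough genes were tRNA-specific adenosine deaminase, a transcriptional repressor, a cutinase and a homocysteine S-methyltransferase. The tRNA deaminase (CC1G_14566), which makes inosine in tRNA anticodons, had 565 and 556 in initials, against 1668 and 1700.3 in mycelium, 1934 and 1624 in primordia, 2515 and 2552 in young fruiting bodies and 2183 and 2001 in mature caps. The difference of initials minus mycelium, the nearest stage, was -1.59 log2 units (adjusted p = 0.000202), and the other 8 arrays lay between 1624 and 2552. The product called specific transcriptional repressor (CC1G_03744) had 272 and 289.9 in initials, 2.77-fold under the 826 and 729 of primordia (adjusted p = 0.000204). Cutinase (CC1G_11503), a secreted esterase that breaks down plant cutin, had 219 and 233 in initials, against 1739 and 1735 in mycelium, 707 and 513 in primordia and 1740.2 and 1688 in young fruiting bodies. Homocysteine S-methyltransferase (CC1G_09320), which makes methionine, was 2.50-fold under primordia (adjusted p = 0.000449). All 4 kept their calls without any 1 array.

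Some named genes differed strongly from the mean without being extreme in initials. Among those higher were phosphatidylserine decarboxylases, which make the membrane lipid phosphatidylethanolamine. CC1G_09238 had 25528 and 25886 in initials, against 678 and 670.2 in mycelium, 25610.0 and 24465 in primordia, 15841 and 15507 in young fruiting bodies and 1313 and 1165 in mature caps. CC1G_09208 had 13864 and 13541 in initials, against 521 and 568 in mycelium, 15069 and 14175 in primordia, 13450.0 and 13359 in young fruiting bodies and 155 and 116 in mature caps. Both were about as bright in primordia as in initials and dim in mycelium and mature caps, with differences of 2.60 ± 0.045 and 2.82 ± 0.10 from the mean. A neighbour by locus tag, CC1G_09237, was a peak gene, with 16408 and 15136 in initials, against 12583 and 13001 in primordia, 3919 and 4102 in young fruiting bodies and 1003 and 998 in mature caps (margin 1.23-fold, adjusted p = 0.0259).

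Snodprot1 (CC1G_09154), a small secreted protein of the cerato-platanin family, had 9132 and 8612 in initials, against 5715 and 5433 in mycelium, 4121 and 4809.8 in primordia, 985 and 979 in young fruiting bodies and 58.0 and 79.9 in mature caps. It was brightest in initials and lower in every later stage, with mature caps under the floor, but its margin over mycelium missed the threshold (1.59-fold, adjusted p = 0.0614). The cytochrome P450 CC1G_01638 had 4454 and 4395 in initials, against 4746 and 4674 in mycelium and 983 and 1118 in primordia, so it was about as high in mycelium.

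Of the 4 largest named falls outside the trough set, 3 were genes that were low in initials and mycelium alike and higher in later stages. The cyclin CC1G_09963, whose family activates the kinases of the cell cycle, had 378 and 400.2 in initials, against 226 and 222 in mycelium, 2815 and 2518 in primordia, 8281 and 7746 in young fruiting bodies and 14149 and 13853 in mature caps. An AGC-class protein kinase (CC1G_04354) had 518 and 571 in initials, against 435 and 435 in mycelium, 6799 and 5977 in primordia and 12444 and 13059 in young fruiting bodies. A small heat shock protein (CC1G_05868) had 53.3 and 62.4 in initials and 44.1 and 54.7 in mycelium, both under the floor, against 13488 and 12813 in mature caps, and was at least 5.32-fold below the mean. These 3 were brightest in young fruiting bodies or mature caps. The aryl-alcohol dehydrogenase CC1G_14311 had 182 and 182 in initials, against 3818 and 4168 in mycelium, 147 and 126 in primordia and 9471 and 9373 in mature caps, so it was low in initials and primordia and high on both sides of them. Their differences from the mean lay between -3.06 and -2.57 log2 units, with an adjusted p of at most 9.27e-07.

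Gene groups were taken as lists of product names. Each is described by how many of its members passed, beside the 35.9% higher and 30.3% lower of all genes and their median difference of 0.01 log2 units. For counts against 1 stage, the shares of all genes higher and lower were 37.5% and 33.7% for mycelium and 24.5% and 23.5% for primordia. They were 32.8% and 32% for young fruiting bodies and 40.4% and 38.1% for mature caps. Averaging the 3 pairs of arrays made 32 of these counts smaller by over 1.5 times, with 2 residual degrees of freedom left.

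Of 10 hydrophobins, 5 were higher and 3 lower than the mean, but the direction depended on the stage. Against mycelium 8 of 10 were lower in initials and 2 higher (median -1.64). Against mature caps 8 were higher and none lower (median 1.20). CoH2, the 1 peak gene of the list, lies among consecutive locus tags with 4 others. Its neighbour CC1G_02184, listed as CoH1, had 4009 and 3892 in initials, against 22262 and 21773 in mycelium, 1094 and 1272 in primordia, 331 and 367 in young fruiting bodies and 619 and 393 in mature caps. CC1G_02181, also listed as CoH1, had 575 and 589 in initials, against 4029 and 4345 in mycelium, 502 and 484 in primordia, 554 and 531 in young fruiting bodies and 501 and 551 in mature caps, so mycelium alone was bright. The 5 higher hydrophobins became 3 without initials replicate 1, initials replicate 2 or primordium replicate 2, and 9 with none lower without the mycelium stage. Without the mature stage 3 were higher and 5 lower.

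Hydrophobins, plant cell wall enzymes and laccases were also looked at as possible marks of mycelium carried along with the initials. The median log2 intensity of the hydrophobins was 12.0 in initials and 13.2 in mycelium. Of 61 enzymes of plant cell wall degradation 24 were higher and 21 lower than the mean, and against mycelium 34 were higher and 21 lower (median 0.31). Of 26 laccases, tyrosinases and copper radical oxidases 7 were higher and 15 lower. Against mycelium 11 were higher (42.3%) and 9 lower (34.6%), both near the shares of all genes, with a median of -0.04. Without the mature stage the higher count of this last list was 13. The plant cell wall and laccase lists had their lowest median log2 intensity in mycelium, at 9.83 and 9.36, against 10.2 and 9.54 in initials. Those 2 lists therefore cannot mark mycelium here. Whether mycelium was carried along with the initials was not tested.

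Lectins were few. Of 6, 4 were higher and 1 lower than the mean (median 0.89), and none was a peak gene. The lower one was a ricin B lectin (CC1G_11246), with 1088 and 1048 in initials, against 11491 and 11956 in mature caps.

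Mating-type pheromones are lipid-modified peptides that bind receptors on partner hyphae and keep the dikaryon going. Of 37 pheromones and receptors 17 were higher and 15 lower than the mean. Stage by stage, 24 members were lower than in mycelium and 8 higher, while 22 were higher than in primordia and 1 lower. The 4 peak genes were 2 pheromones and 2 receptors. Pheromone Phb2.2 (CC1G_02132) had 1313 and 1319.7 in initials, against 343 and 349 in mycelium, 829.9 and 922 in primordia, 597 and 635 in young fruiting bodies and 975 and 920.0 in mature caps. The receptor Rcb2 (CC1G_15338) had 5724 and 5569 in initials, against 4292 and 4092 in mycelium, 4486 and 4483 in primordia and 287 and 329 in mature caps. The values of such close relatives are uncertain, since probes can share signal between them. The pheromone Phb2.1 (CC1G_02135) was at least 3.41-fold above the mean (adjusted p = 3.39e-06), with mature caps under the floor.

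Of 8 homeodomain and other mating-type proteins 5 were higher and 2 lower, and without initials replicate 1 the higher count was 3. Mating-type protein beta 1 (CC1G_01831), a homeodomain regulator, was a peak gene by only 1.11-fold over mycelium (adjusted p = 0.027), a call lost without 7 of the 10 arrays.

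**Figure D4:**
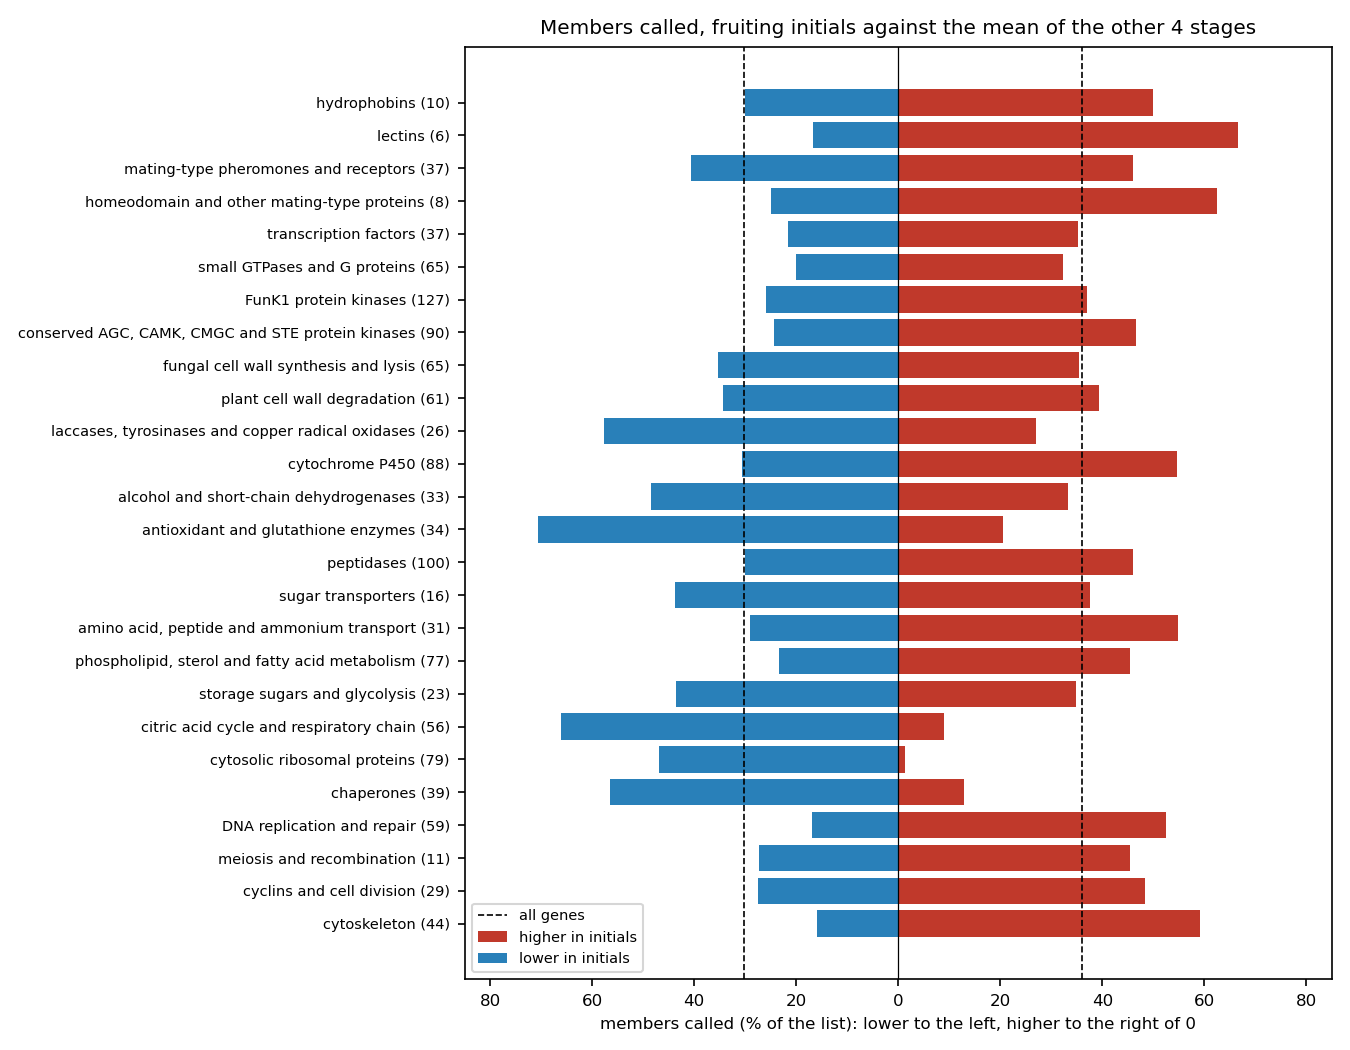
Percent of the members of each gene list that were higher (right, red) or lower (left, blue) in initials than the mean of the 4 other stages, with member numbers in brackets. Dashed lines mark all genes (35.9% higher, 30.3% lower); citric acid cycle, ribosomal, chaperone and antioxidant lists have few higher members.

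Among regulators, of 37 transcription factors 13 were higher and 8 lower; the lower count was 4 without initials replicate 1, 13 without the mycelium stage and 5 without the mature stage. A forkhead protein (CC1G_14832), of a DNA-binding family, was a peak gene with 2868 and 2966 in initials, against 2183 and 2331 in primordia (1.29-fold, adjusted p = 0.0122), a call lost without initials replicate 1 or 2 or primordium replicate 1. Of 65 small GTPases and G proteins 21 were higher (32.3%) and 13 lower (20%). Rab7 (CC1G_10499), which directs late endosomes to the vacuole, was a trough gene with 351 and 335 in initials, against 2761 and 2601 in mycelium, 492 and 570.1 in primordia, 2009.6 and 1902 in young fruiting bodies and 2828 and 2514 in mature caps. It was low in initials and primordia and brighter elsewhere, and its margin under primordia (adjusted p = 0.00668) was lost without initials replicate 2 (0.0604).

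FunK1 kinases are a large protein kinase family of mushroom-forming fungi. Of 127 measured, 47 were higher (37.0%) and 33 lower (26.0%) than the mean, near the 35.9% and 30.3% of all genes. Peak genes numbered 6, beside 2.22% of all genes. The largest difference among these 6 was in CC1G_12300, with 726 and 712 in initials, against 312 and 324 in mycelium, 450.1 and 482 in primordia and 256 and 267 in mature caps. Trough kinases were the consecutive CC1G_02242 and CC1G_02243. CC1G_02243 had 696 and 709 in initials, against 3719 and 3518 in mycelium and 1518 and 1337 in primordia. Of 90 conserved AGC, CAMK, CMGC and STE kinases 42 were higher (46.7%) and 22 lower (24.4%), none peaked and 2 were trough genes. Among the lower ones, the GIN4 kinase CC1G_02503 had 960 and 970 in initials, against 703 and 684 in mycelium and 7526 and 7193 in mature caps.

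Of 65 genes of fungal cell wall synthesis and lysis 23 were higher (35.4%) and 23 lower (35.4%), and no rise reached 2-fold. The endo-1,3(4)-beta-glucanase CC1G_00864, which cuts the wall's beta-glucan, was a trough gene with 385 and 381 in initials, against 901 and 899.9 in mycelium, 2098 and 2028 in primordia, 2723 and 2627 in young fruiting bodies and 9799 and 9748 in mature caps. It was lowest in initials, 2.35-fold under mycelium (adjusted p = 6.10e-06), and brightest in mature caps. A chitinase (CC1G_00406) had 471 and 468 in initials, against 444 and 424 in mycelium and 7773 and 7575 in mature caps.

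Among plant wall enzymes 5 were trough genes, of which 3 were listed as cellobiohydrolases, enzymes that split cellobiose off cellulose. CC1G_13449 had 691 and 659 in initials, against 2823 and 2991 in mycelium, 1622 and 1320.2 in primordia, 2504 and 2432 in young fruiting bodies and 1269 and 1156 in mature caps. CC1G_12411 had 811 and 765 in initials, against 2541 and 2388 in mycelium and 1266 and 1178 in primordia. CC1G_12409 had 1092 and 854 in initials, against 1977 and 1760.3 in primordia. All 3 were lowest in initials, with margins of 1.79, 1.55 and 1.75-fold. A mannanase (CC1G_02860) was higher than the mean by 1.54 ± 0.11, yet below mycelium, with 3600.5 and 3502 in initials, against 12015 and 12484 in mycelium. The tyrosinase CC1G_14163, a phenol oxidase, peaked in initials at 12629 and 13216, against 8722 and 9563 in primordia. Most of its list went the other way, with 15 of 26 members lower than the mean and 7 higher. It alone was at least 2-fold higher, while 5 members were at least 2-fold lower. Copper radical oxidase CC1G_01224 differed by -1.81 log2 units from the mean, and laccase 1 (CC1G_09614), close to the floor in initials, by -1.48. Laccase 7 (CC1G_09609) was a trough gene, 1.42-fold under primordia (adjusted p = 0.0291).

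Cytochromes P450, oxygenases of secondary and lipid metabolism, were higher for 48 of 88 members (54.5%) and lower for 27, with a median of 0.20. The median was -0.11 against mycelium, 0.18 against primordia, 0.28 against young fruiting bodies and 0.29 against mature caps. CC1G_01274, a benzoate 4-monooxygenase by name, had 6631 and 6654 in initials, against 289 and 322 in mycelium, 4752 and 4753 in primordia, 3859.6 and 3817 in young fruiting bodies and 486 and 447 in mature caps. It was bright in initials, primordia and young fruiting bodies, and its peak call (1.40-fold over primordia, adjusted p = 0.00897) was lost without initials replicate 1 or 2 or primordium replicate 1 and with either block alone. CC1G_11455 was a peak gene too, with 12348 and 12484 in initials, against 9031 and 9556 in primordia (1.34-fold, adjusted p = 0.00327).

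Alcohol and short-chain dehydrogenases held 11 higher and 16 lower members of 33, with 5 at least 2-fold lower and none 2-fold higher. Antioxidant and glutathione enzymes, which remove peroxides and reactive oxygen, were lower for 24 of 34 (70.6%) and higher for 7, with a median of -0.23. The median was below 0 against each stage, at -0.25 for mycelium, -0.08 for primordia, -0.22 for young fruiting bodies and -0.30 for mature caps. Catalase CC1G_03890, which splits hydrogen peroxide, was a trough gene with 3682 and 3689 in initials, against 5421 and 5329 in mycelium, 7143 and 6314 in primordia, 12591 and 12432 in young fruiting bodies and 9022 and 8722 in mature caps. Thioredoxin-dependent peroxidase CC1G_07749 was under the floor in initials (76.9 and 86.5), against 168 and 229 in mycelium and 8528 and 8079.6 in mature caps, a trough call lost without initials replicate 1 or 2 (up to 0.0843). With the 3 pairs of arrays averaged the lower count of this list was 13.

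Of 31 amino acid, peptide and ammonium transporters 17 were higher and 9 lower than the mean. The peptide transporter MTD1 (CC1G_10862) had 9470.5 and 9212 in initials, against 1400.4 and 1389 in mycelium, 7349.6 and 7709 in primordia, 6283 and 6319.8 in young fruiting bodies and 1231 and 1464 in mature caps. An ammonium transporter (CC1G_05914) had 808 and 803 in initials, against 631 and 614 in mycelium, 103 and 91.2 in primordia and 186 and 170.0 in young fruiting bodies, so it was high in initials and mycelium. Of 77 lipid genes 35 were higher and 18 lower, and 11 rose at least 2-fold while none fell that far. A long-chain acyl-CoA synthetase (CC1G_11231), which activates fatty acids, was a peak gene with 9259 and 8628 in initials, against 2278 and 2182 in mycelium, 7591 and 7797 in primordia and 1225 and 1263 in mature caps (1.16-fold, adjusted p = 0.0429). Sugar transporters divided into 6 higher and 7 lower of 16, and peptidases into 46 higher and 30 lower of 100.

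Of 56 genes of the citric acid cycle and respiratory chain 37 (66.1%) were lower than the mean and 5 higher, though none by 2-fold (median -0.14). The lower members numbered 37 against mycelium, 27 against primordia, 26 against young fruiting bodies and 39 against mature caps. The NADH dehydrogenase CC1G_06456, by name an enzyme of the respiratory chain, was a trough gene with 5605 and 5619 in initials, against 7329.5 and 7561 in mycelium, 7925 and 7337 in primordia, 8777 and 8902 in young fruiting bodies and 10953 and 10802 in mature caps. Initials were below all 8 other arrays by a small margin (1.33-fold under mycelium, adjusted p = 0.00165). With the 3 pairs of arrays averaged 10 members were lower and none higher, and without initials replicate 2 the higher count was 3. Of 23 storage sugar and glycolysis genes 8 were higher and 10 lower, and glycogen synthase (CC1G_01973) and glycogen phosphorylase (CC1G_02204), which build and break down glycogen, were both peak genes by 1.16 and 1.10-fold.

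Of 79 cytosolic ribosomal proteins, the building blocks of the ribosome, 37 were lower than the mean and 1 higher, with a median of -0.08. Stage by stage, 65 were lower in initials than in mycelium, 72 than in primordia and 74 than in young fruiting bodies, and none was higher than in any of these. Against mature caps 63 were higher in initials and 5 lower. The medians were -0.20, -0.24, -0.32 and 0.41 log2 units for mycelium, primordia, young fruiting bodies and mature caps. Against a mean without the mature stage 77 were lower, without the primordium stage 24 were lower and 5 higher, and without the young fruiting body stage 19 and 12. With initials replicate 1 or 2 left out the lower count was 21 and 23, and with averaged pairs 4. The 60S protein L19 (CC1G_01249), a part of the large subunit, was the only trough gene of the list, with 4150.4 and 4048 in initials, against 6354 and 6451 in mycelium, 5168 and 4927 in primordia, 4847 and 5032 in young fruiting bodies and 5895 and 5525 in mature caps.

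Chaperones were lower for 22 of 39 members (56.4%) and higher for 5, a higher count that was 3 without initials replicate 1, initials replicate 2 or mycelium replicate 2 and 8 against a mean without the mycelium stage. The median was -0.16, and it was below 0 against every stage. Of the 39, 6 were trough genes. The hsp90-like protein CC1G_05439, a chaperone of kinases and receptors, had 3062 and 3184 in initials, against 6652 and 6653 in mycelium, 7693 and 7244 in primordia, 8472 and 8819 in young fruiting bodies and 5036 and 5202 in mature caps. Initials were 1.64-fold under mature caps, the nearest stage (adjusted p = 0.000285), and further under the rest. The hsp78-like protein CC1G_14783, named for a mitochondrial chaperone of yeast, had 4297 and 4258 in initials, against 8497 and 7942 in mycelium and 6570.3 and 6096 in primordia. An hsp10-like protein (CC1G_04070), a DnaJ protein (CC1G_04405), heat shock cognate 70 (CC1G_13924) and a product listed as chaperone (CC1G_14390) were the others, with margins of 1.18 to 1.45-fold. Against mycelium, which was grown warmer, 21 members were lower and 5 higher, and against primordia 23 were lower and 4 higher.

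**Figure D5:**
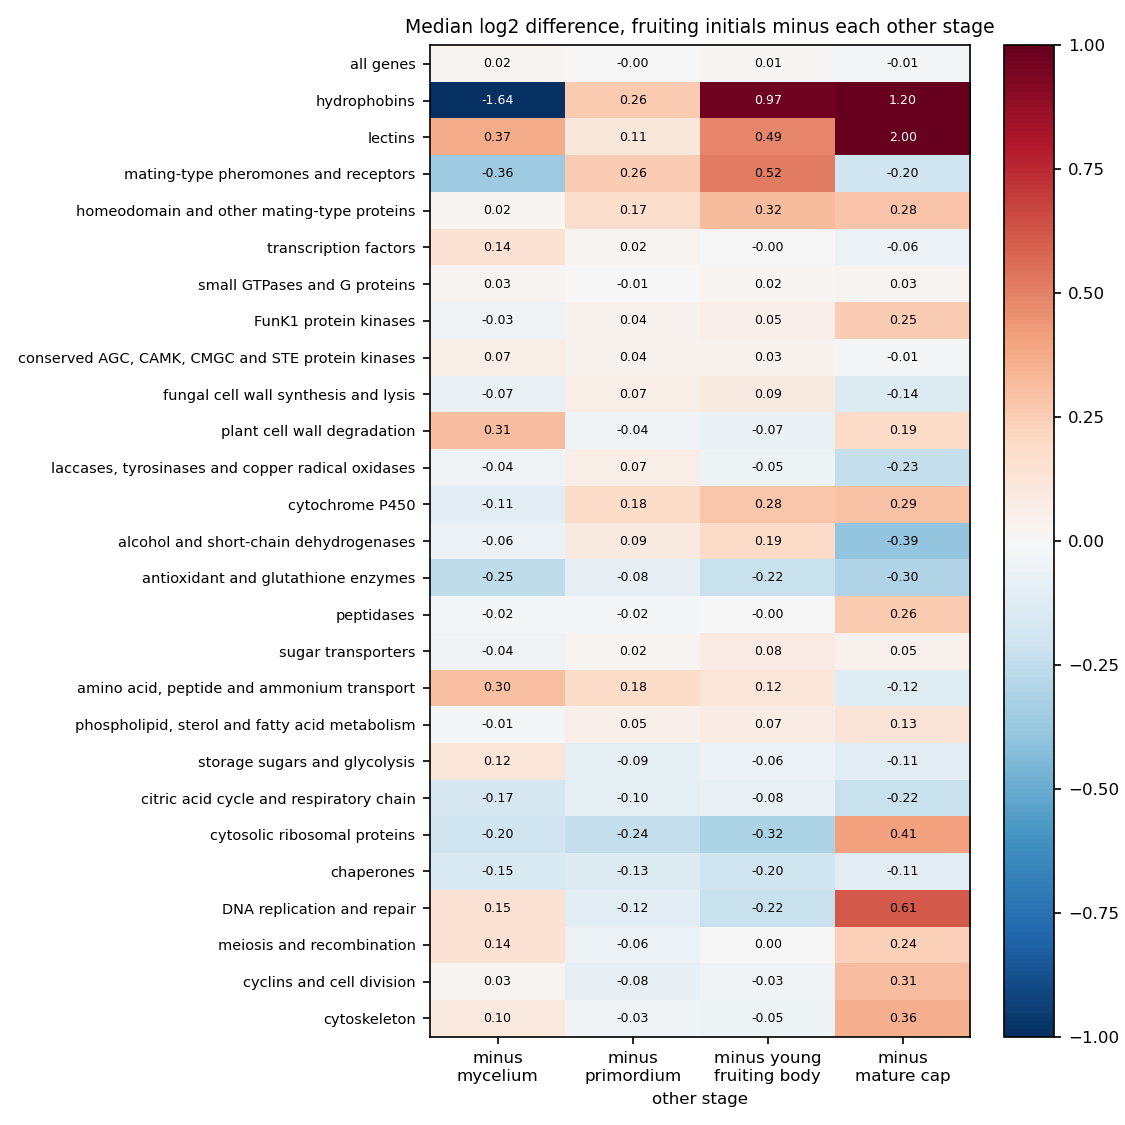
Median log2 difference of each gene list, initials minus each of the 4 other stages, with all genes in the top row. Blue is lower and red higher in initials, and colours stop at 1 log2 unit either way; the ribosomal protein row is negative against 3 stages and positive against mature caps, and the antioxidant, citric acid cycle and chaperone rows are negative in all 4 columns.

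Genes of DNA replication and repair were higher than the mean for 31 of 59 and lower for 10, and this too depended on the stage. Against mycelium 33 were higher and 6 lower, and against mature caps 41 and 13. Against young fruiting bodies 11 were higher and 33 lower, and against primordia 9 and 26. DNA polymerase mu (CC1G_09351), a repair polymerase, was the 1 peak gene, with 6292 and 6437 in initials, against 3355 and 3806 in mycelium and 4850.4 and 5171 in primordia (1.27-fold, adjusted p = 0.0312). A product listed as II DNA helicase (CC1G_06193) had 183 and 168 in initials, against 116 and 115 in mycelium and 1646 and 1393 in primordia. Without the mature stage the list had 15 higher and 23 lower members, and without the mycelium stage 18 were lower.

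Of 11 meiotic genes 5 were higher and 3 lower than the mean. Spo11 (CC1G_03320), which makes the meiotic DNA breaks, had a mean log2 intensity of 9.92 in initials, against 6.23 in mycelium, 11.27 in primordia and 11.55 in young fruiting bodies.

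Cyclins and cell division genes were higher for 14 and lower for 8 of 29, and cytoskeleton genes higher for 26 and lower for 7 of 44. The higher counts leaned on the mature caps, against which 19 and 32 members were higher, and they were 6 and 12 without that stage, when 13 cytoskeleton genes were lower. The lower counts were 4 and 4 without initials replicate 1, and that of the cyclins was 4 without initials replicate 2 and 5 without mycelium replicate 2 or young fruiting body replicate 2. CDC20 family protein CC1G_09412, an activator of the anaphase ligase, had 4435 and 4612 in initials, against 3326 and 3449 in mycelium, 5019 and 5040.5 in primordia, 5599 and 5568 in young fruiting bodies and 164 and 191 in mature caps. Its difference of 1.16 ± 0.054 turned to -0.01 without the mature stage. Dynein intermediate chain (CC1G_06941), a motor subunit, had 1632 and 1638 in initials, against 1107 and 1152 in mycelium, 1584 and 1507 in primordia, 1666 and 1722 in young fruiting bodies and 133 and 151 in mature caps, so it was about as high in primordia and young fruiting bodies as in initials and dim in mature caps. Actin CC1G_13048 had 769 and 743 in initials, against 3185 and 3304 in mycelium, 978 and 936 in primordia, 766 and 759 in young fruiting bodies and 3357 and 3281 in mature caps, so it was low in initials, primordia and young fruiting bodies and high in mycelium and mature caps.

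Along the annotated genome, 33 of the 296 peak genes (11.1%) had an adjacent peak gene, and 545 of 13022 other genes (4.19%) did. Of the 437 trough genes 42 (9.61%) had an adjacent trough gene, against 821 of 12881 others (6.37%). These shares are descriptions without a test.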

How the data were processed

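Total RNA was labelled with Cy3 and hybridised to custom one-colour arrays, per the labels' protocols. The authors deposited linear RMA intensity values, 1 for each gene in each of 2 blocks of 5 probes per array, per the file headers; which software and settings made them is not given in the sources used here. Log2 values of both blocks were averaged, with no further normalization, pseudocount or filter. The series-wide table that the authors deposited held these intensity values for 13304 genes. Products are those of the array's design and can be old.

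The 10 arrays were fitted together with limma 3.58.1 (R 4.3.3; functions lmFit and eBayes), with stage as the single term and 5 residual degrees of freedom. The contrast was initials minus the mean of the 4 other stages. Peak and trough genes were called on the largest of the 4 one-sided p-values against the other stages, adjusted over all genes. An adjusted p printed beside the margin of a peak or trough gene is from this test. The steps were run on simulated data with independent arrays and equal levels in the 4 other stages. Those data do not cover other stages that differ, or replicates that are nearly alike. The number of arrays limits the precision, and p-values cover only the spread between these arrays. Where a stage was under the floor, folds are written "at least N-fold", each dim array being raised to its floor first. Neighbours came from the RefSeq annotation of assembly CC3 (13318 genes matched by locus tag). Its coordinates served only to order the genes, and no sequences were used here.

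Genes were named by rank: the 8 peak genes of any product and the 8 named ones with the largest margin, likewise 6 and 6 trough genes, 4 named rises and 4 named falls outside these sets, up to 2 called members per list, and the 3 galectins. List members among the peak and trough genes, the hydrophobins, lectins and Spo11 were named after their values were seen. Some genes that the rule takes are left out of the text. The members and lists were chosen with earlier results of these data known, and the list patterns were revised after counts and values had been seen, so lists have no test. Alternatives were each block alone, quantile normalization, a floor filter, a trended robust fit, the replicate number as a block, each array left out, 3 pairs averaged, each other stage left out, and the table of the whole series. Leaving out 1 array lowered the residual degrees of freedom from 5 to 4. A call could then be lost although the margin itself did not change.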

Additional observations from a re-analysis of the deposited data

How the results depend on the processing

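The numbers of genes higher and lower than the mean of the other stages (4783 and 4035) stayed within 1.5 times under every alternative but the averaged pairs (2782 and 2397): single arrays left out gave 4024 to 4918 and 3342 to 4178, and the replicate number as a block 4776 and 4082. The 296 peak genes became 196 and 190 with block 1 or 2 alone, 491 with a trended robust fit, 54 to 377 with 1 array left out and 0 with averaged pairs. Without the mycelium, primordium or mature stage there were 1232, 873 and 654. The 437 trough genes became 246 to 445 with 1 array left out, 0 with averaged pairs, and 1174, 816 and 854 without those stages, where fewer stages have to be passed. Averaging also left 846 genes higher and 838 lower than primordia, and 2360 and 2329 against young fruiting bodies. Similar counts against the mean did not mean the same genes. Of the 4783 higher and 4035 lower genes, 3395 and 2894 were also called without the mature stage. Without mycelium 4013 and 3396 were shared, without young fruiting bodies 4345 and 3577, and without primordia 4586 and 3834. The replicate number as a block gave 257 peak and 412 trough genes. The labels do not say that numbers pair samples, and the main fit did not pair them. The correlations of replicate differences over 10 pairs of stages ran from -0.02 to 0.50. Some pairs of stages therefore deviated together, and whether same-numbered arrays share a batch was not tested. For the 75 named genes, differences from the mean kept direction and call in 1642 of 1650 recomputed values; 7 missed the threshold and the CDC20 family protein CC1G_09412 turned to -0.0132 without the mature stage (adjusted p = 0.857). For the 35 peak and trough genes among them, 646 recomputed margins kept the call and 124 missed the threshold. The causes were not tested. Quantile normalization moved array medians by at most 0.02 log2 units. Levels under the floor have no order.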
